A study of Mus musculus with 74 samples.

Results

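T cell receptors are assembled from gene segments, and the data set out here are the counts of the alpha chain V segments (Trav) and beta chain V segments (Trbv). Members were all rows of the count table whose symbol starts with Trav or Trbv, 163 of 49480 rows, of which 128 are Trav and 35 are Trbv. The study sequenced bulk RNA, by the full-length Smart-seq2 protocol, of 1000 twice-sorted immune cells per library. The mice were of the strain C57BL/6J, and their ages were 3 and 12 months. The cells came from the spleen, or from a tumor of the mouse colon carcinoma line MC38 taken 10 days after it had been implanted under the skin. The libraries of the T cell groups were all labelled female. Of the 74 libraries, 45 were T cells: CD8 T cells (sorted CD45+TCRb+CD8+) with 4 libraries at each age in each tissue, regulatory T cells (CD45+TCRb+CD4+CD25+) with 4 likewise, and conventional CD4 T cells (CD45+TCRb+CD4+CD25-). The conventional CD4 groups held 4 spleen and 4 tumor libraries at 12 months, 3 spleen libraries at 3 months and 2 tumor libraries at 3 months. No label says whether libraries of a group came from separate animals, so p-values measure the spread between these libraries, which may be technical. Macrophage and dendritic cell libraries, 29 in all, gave the V counts of sorts other than T cells.

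Each alpha-beta T cell joins 1 V segment to a J segment in its alpha chain, and 1 V to a D and a J segment in its beta chain, and passes the joined genes on to its daughter cells. The V segment encodes most of the variable domain, including the first and second loops that touch the MHC molecule, and its last letters open the third loop, which touches the peptide. Usage of V segments in a sample is therefore a coarse summary of its mix of clones: it is broad in resting lymphoid tissue, and it narrows where few clones make up much of a sample. Invariant natural killer T cells in mice carry a Trav11-Traj18 alpha chain with beta chains of Trbv13, Trbv29 or Trbv1. Mucosal-associated invariant T cells carry a Trav1-Traj33 alpha chain.

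The coding sequences of the segments on which the results turn are printed 5′ to 3′ over their last 300 letters, as annotated by GENCODE M21 on GRCm38, the assembly of the mm10 build. They show how far neighbouring segments can be told apart by their letters. Trbv12-1 (chr6:41113550-41114067) and Trbv12-2 (chr6:41118851-41119364), both on the plus strand of chromosome 6, are shown because the share of Trbv12-1 passed the test between tissues in regulatory T cells and that of Trbv12-2 did not; the difference between these results was not tested. They differ at 44 of 372 letters and are 88.2% identical, and capitals mark the 32 of the printed letters that differ.
Trbv12-1: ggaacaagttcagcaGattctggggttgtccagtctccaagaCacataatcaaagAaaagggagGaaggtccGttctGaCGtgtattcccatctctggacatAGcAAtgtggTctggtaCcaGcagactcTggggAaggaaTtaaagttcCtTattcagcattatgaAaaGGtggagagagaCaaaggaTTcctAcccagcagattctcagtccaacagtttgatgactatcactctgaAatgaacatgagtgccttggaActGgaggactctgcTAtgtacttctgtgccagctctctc
Trbv12-2: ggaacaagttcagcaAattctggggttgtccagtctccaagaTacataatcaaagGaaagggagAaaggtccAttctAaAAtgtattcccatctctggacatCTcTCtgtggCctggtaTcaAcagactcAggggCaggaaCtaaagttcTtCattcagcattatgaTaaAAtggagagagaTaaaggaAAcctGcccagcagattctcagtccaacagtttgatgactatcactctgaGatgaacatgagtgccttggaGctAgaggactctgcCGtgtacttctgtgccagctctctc

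Trbv13-3 (chr6:41130147-41130585, plus strand) differed between tumor and spleen in 2 cell types, and Trbv13-2 (chr6:41121396-41121832, plus strand) is a near relative. They differ at 32 of 340 letters and are 90.6% identical, and capitals mark the 25 that fall in the printed letters.
Trbv13-2: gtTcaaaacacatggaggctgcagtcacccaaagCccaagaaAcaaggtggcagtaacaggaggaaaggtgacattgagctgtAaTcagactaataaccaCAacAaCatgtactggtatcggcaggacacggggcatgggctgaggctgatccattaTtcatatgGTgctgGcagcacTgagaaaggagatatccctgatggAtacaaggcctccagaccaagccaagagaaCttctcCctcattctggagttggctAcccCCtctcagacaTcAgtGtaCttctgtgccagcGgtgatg
Trbv13-3: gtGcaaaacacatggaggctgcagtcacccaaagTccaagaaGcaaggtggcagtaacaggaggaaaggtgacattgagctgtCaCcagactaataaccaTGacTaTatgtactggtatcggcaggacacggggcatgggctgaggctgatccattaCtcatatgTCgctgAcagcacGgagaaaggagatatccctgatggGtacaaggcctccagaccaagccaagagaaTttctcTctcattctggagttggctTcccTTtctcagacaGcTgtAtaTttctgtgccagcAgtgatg

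Trbv1 (chr6:40891229-40891885), Trbv3 (chr6:41048290-41048828) and Trbv16 (chr6:41151740-41152230), on the plus strand, held the largest beta shares of single libraries. Capitals run from the conserved cysteine codon, where the third loop begins, to the last letter before the joint.
Trbv1: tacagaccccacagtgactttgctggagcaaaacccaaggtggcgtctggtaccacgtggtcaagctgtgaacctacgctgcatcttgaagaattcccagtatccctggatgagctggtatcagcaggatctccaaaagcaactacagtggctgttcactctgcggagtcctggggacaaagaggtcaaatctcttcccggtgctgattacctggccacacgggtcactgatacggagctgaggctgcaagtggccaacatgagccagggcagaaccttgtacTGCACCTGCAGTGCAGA
Trbv3: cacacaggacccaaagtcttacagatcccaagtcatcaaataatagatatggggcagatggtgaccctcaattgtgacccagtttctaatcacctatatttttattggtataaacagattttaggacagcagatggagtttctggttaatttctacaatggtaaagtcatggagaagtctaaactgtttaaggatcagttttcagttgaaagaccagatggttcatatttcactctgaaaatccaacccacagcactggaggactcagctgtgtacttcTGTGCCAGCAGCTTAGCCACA
Trbv16: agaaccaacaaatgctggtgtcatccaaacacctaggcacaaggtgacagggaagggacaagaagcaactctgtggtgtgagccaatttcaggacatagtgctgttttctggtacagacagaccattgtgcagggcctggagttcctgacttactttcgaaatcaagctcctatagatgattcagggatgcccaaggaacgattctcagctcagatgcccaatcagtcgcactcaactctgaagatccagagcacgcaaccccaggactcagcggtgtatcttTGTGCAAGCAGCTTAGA

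The alpha locus holds near copies of its own segments, as Trav6-3 (chr14:53428711-53430377) and Trav6d-3 (chr14:52725299-52726919) on the plus strand of chromosome 14 show. They differ at 1 of 338 letters, in capitals, so counts of Trav6-3 could not be separated from those of its copy with certainty. Trav11 (chr14:53519303-53519859, plus strand), the segment of invariant natural killer T cells, has no letter that differs from Trav11d over 342 letters, and is printed without capitals.
Trav6-3: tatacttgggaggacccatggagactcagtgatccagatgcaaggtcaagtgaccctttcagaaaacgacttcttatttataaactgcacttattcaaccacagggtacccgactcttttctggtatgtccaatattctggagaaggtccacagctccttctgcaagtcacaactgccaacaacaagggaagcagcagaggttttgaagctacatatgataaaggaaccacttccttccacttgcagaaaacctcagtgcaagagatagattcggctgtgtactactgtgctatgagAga
Trav6d-3: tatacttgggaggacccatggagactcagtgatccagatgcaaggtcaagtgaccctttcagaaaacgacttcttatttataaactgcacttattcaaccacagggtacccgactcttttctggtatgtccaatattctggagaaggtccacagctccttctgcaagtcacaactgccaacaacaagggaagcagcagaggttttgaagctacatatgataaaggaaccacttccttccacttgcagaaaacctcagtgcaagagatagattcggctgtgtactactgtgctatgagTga
Trav11: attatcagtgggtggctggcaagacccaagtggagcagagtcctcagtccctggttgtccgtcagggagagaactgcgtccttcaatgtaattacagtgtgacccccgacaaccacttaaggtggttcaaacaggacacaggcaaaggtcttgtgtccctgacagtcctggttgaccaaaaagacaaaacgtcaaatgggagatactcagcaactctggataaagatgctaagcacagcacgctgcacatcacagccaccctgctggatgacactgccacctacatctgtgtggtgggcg

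Of the 163 segments, 119 had at least 1 count in a T cell library and 44 had none. The 44 were 41 Trav and the pseudogenes Trbv27, Trbv28 and Trbv8. Of these 41 Trav, 36 had a coding sequence identical to that of another member. In all, 42 Trav segments had such a double, and together they held 14 of 21648 Trav counts, or 0.0647%. How reads that match several genes were counted is not given in the sources used here. The beta locus was easier to read: no Trbv segment had an identical double, at least 80.4% of the 25-letter words of each occurred in no other member, and the 13 pseudogenes held 370 of 80862 counts. Beta results are therefore given first, and alpha results for single segments carry the uncertainty of their copies.

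T cell libraries held 158 to 989 Trav counts (median 439) and 433 to 3980 Trbv counts (median 1634) among 1652812 to 7348746 counts in all. Macrophage and dendritic cell libraries held 0 to 26 Trav counts and 0 to 46 Trbv counts. A segment with no count in a library of median depth could still make up 0.683% of Trav counts or 0.184% of Trbv counts, the share of 3 counts. Cd4, Cd8a and Foxp3 followed the sorted types: Cd4 was at most 0.454 CPM (counts scaled to a common library total) in CD8 libraries, Cd8a at most 2.71 CPM in the CD4 sorts, and Foxp3 869 to 1310 CPM in regulatory T cells. The gene of CD25, by which the CD4 sorts were separated, is not given here. The other CD8 chain, Cd8b1, was above 0 in every CD4 sort, at 4.31 to 27.5 CPM beside 1563 to 2565 CPM in CD8 libraries. Conventional CD4 libraries were not free of Foxp3, with 21.2 to 79.9 CPM in spleen and 76.1 to 354 CPM in tumor.

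Usage is given as the share of a segment in all Trav or all Trbv counts of its library. Shares are of counts and are not corrected for length, so the order of segments within a library is not an order of levels: annotated transcripts of Trbv19 and Trbv2 (566 and 560 letters) are longer than that of Trbv12-1 (389 letters). In these bulk samples, fewer cells that carry a segment and less RNA of it per cell cannot be told apart. Shares were compared with edgeR's quasi-likelihood test fitted to the whole table, with each segment offset by its locus total, and Benjamini-Hochberg adjustment over all genes tested. A segment is said to rise or fall where the adjusted p is below 0.05, and ± after a log2 fold change is its standard error.

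In spleen, the cell types differed in beta usage. Trbv3 held 9.81 to 14.9% of Trbv counts in conventional CD4 T cells and 10.1 to 24.1% in regulatory T cells, and Trbv12-2 held 9.49 to 12.7% in CD8 T cells. CD8 and regulatory T cells were each compared with conventional CD4 T cells and not with each other. The segment with the smallest adjusted p in both comparisons was Trbv12-1. It held 5.53 to 6.97% (median 6.58%) in the 8 CD8 libraries, 0.805 to 1.87% (median 1.27%) in the 7 conventional CD4 libraries and 5.80 to 10.2% (median 8.09%) in the 8 regulatory T libraries. No CD8 or regulatory T library overlapped a conventional CD4 library. Against conventional CD4 T cells its share was higher by 2.28 ± 0.19 on the log2 scale in CD8 T cells (adjusted p = 1.91e-09) and by 2.63 ± 0.21 in regulatory T cells (adjusted p = 1.22e-10); both comparisons use the same conventional CD4 libraries. Trbv12-2, its near neighbour in sequence, was higher in CD8 T cells by 1.05 ± 0.16 (adjusted p = 4.04e-05, no overlap). In regulatory T cells it differed from conventional CD4 T cells by 0.36 ± 0.19 (adjusted p = 0.117), a difference that did not pass the test.

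CD8 and conventional CD4 T cells of the spleen differed at 14 of the 57 segments tested (24.6%), beside 15.7% of the 13139 genes tested, with 6 higher and 8 lower in CD8 T cells. Higher in CD8 were Trbv12-1, Trbv12-2, Trbv29, Trbv14, Trbv17 and Trav16n. Trbv29 held 4.23 to 6.81% in CD8 and 0.890 to 1.99% in conventional CD4 libraries (log2 1.85 ± 0.21, adjusted p = 2.39e-07). Lower in CD8 were Trbv1, Trbv2, Trbv3, Trbv5, Trbv20, Trbv26, Trbv31 and Trav4-4-dv10. Trbv31, the one beta segment that lies downstream of the constant regions and reads from the minus strand, held 0.524 to 1.95% in CD8 and 2.01 to 6.39% in conventional CD4 libraries (log2 -1.73 ± 0.28, adjusted p = 5.78e-05). The groups did not overlap at Trbv12-1, Trbv12-2, Trbv29, Trbv3, Trbv31 and Trbv5. How many of all genes tested had groups without overlap was not counted, here or in the other comparisons. Of the 14, Trav4-4-dv10 fell short of the threshold without replicate 1 of the 12-month conventional CD4 spleen group (adjusted p = 0.0532). Trbv1, Trbv2, Trbv3, Trbv5, Trbv12-1, Trbv12-2, Trbv14, Trbv20, Trbv29 and Trbv31 kept their calls in all 15 fits that left out 1 library. The fit that kept the fewest kept 12 of the 14, so calls were also lost among Trav16n, Trbv17 and Trbv26. With alpha segments summed by subgroup, those of the same Trav number, Trav16 was called higher in CD8 and Trav4 was not called.

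Regulatory and conventional CD4 T cells of the spleen differed at 8 of 50 segments tested, 16% beside 55.5% of all 13548 genes tested, a smaller share than over the table. Trbv12-1 was the 1 segment that was higher. Lower were Trbv13-1, Trbv13-3, Trbv14, Trbv16, Trbv17, Trbv31 and Trav14d-3-dv8, by 0.48 to 1.66 on the log2 scale. The largest of these was Trav14d-3-dv8, a segment shared by the alpha and delta chains (log2 -1.66 ± 0.54, adjusted p = 0.0109). With alpha segments summed by subgroup, none of 16 was called. The libraries overlapped for each of the 7. Trbv13-3 and Trbv31 each lost the call in 7 of the 15 fits that left out 1 library, and without replicate 1 of the 3-month conventional CD4 spleen group 5 segments were called.

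**Figure D1:**
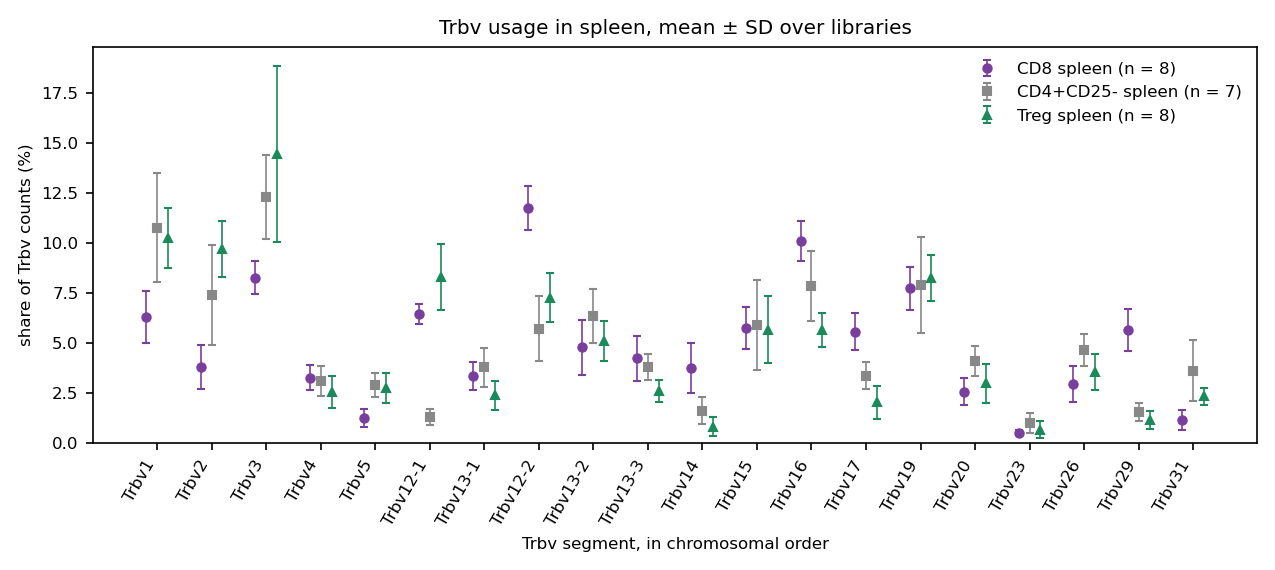
Share of Trbv counts (%, vertical axis) of 20 Trbv segments in chromosomal order (horizontal axis) in spleen; points are means and bars SDs over 8 CD8, 7 conventional CD4 (CD4+CD25-) and 8 regulatory T (Treg) libraries. Trbv12-1 has a mean of 6.45% in CD8 and 8.31% in regulatory T cells against 1.30% in conventional CD4 T cells.

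In regulatory T cells, Trbv12-1 held a smaller share of Trbv counts in tumor libraries than in spleen libraries, and Trbv1 held a larger share. In spleen, Trbv12-1 held 10.1, 10.2, 9.89 and 8.43% of Trbv counts in the 4 libraries at 3 months and 6.96, 7.28, 7.75 and 5.80% at 12 months. In tumor it held 1.62, 0, 0.512 and 0.412% at 3 months and 1.00, 0, 0.433 and 0.693% at 12 months. Every tumor library was below every spleen library, and the 2 libraries at 0 still allow a share of up to 0.341% (3 months) and 0.312% (12 months). The share fell by 3.84 on the log2 scale (SE 0.40, adjusted p = 7.37e-08), from 943 of 11398 Trbv counts over the spleen libraries to 31 of 5651 over the tumor libraries. Trbv12-2 held 5.45 to 9.17% in spleen and 2.92 to 12.6% in tumor, and its difference of 0.12 ± 0.24 did not pass the test (adjusted p = 0.704). As levels in the whole library both passed, Trbv12-1 with a log2 fold change of -4.83 ± 0.42 (adjusted p = 4.22e-09) and Trbv12-2 with -0.93 ± 0.24 (adjusted p = 0.00289).

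The share of Trbv1 rose in tumor regulatory T cells. This share in tumor was 17.0, 28.4, 24.2 and 13.0% at 3 months and 31.3, 23.4, 24.4 and 17.8% at 12 months. In spleen it ran from 8.03 to 12.7% (median 10.6%). All 8 tumor libraries were above all 8 spleen libraries, with a log2 fold change of 1.14 ± 0.17 (adjusted p = 6.79e-06). As a level in the whole library Trbv1 did not pass the test (log2 0.14 ± 0.18, adjusted p = 0.525): summed Trbv counts were 288 to 431 CPM in spleen and 117 to 158 CPM in tumor.

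**Figure D2:**
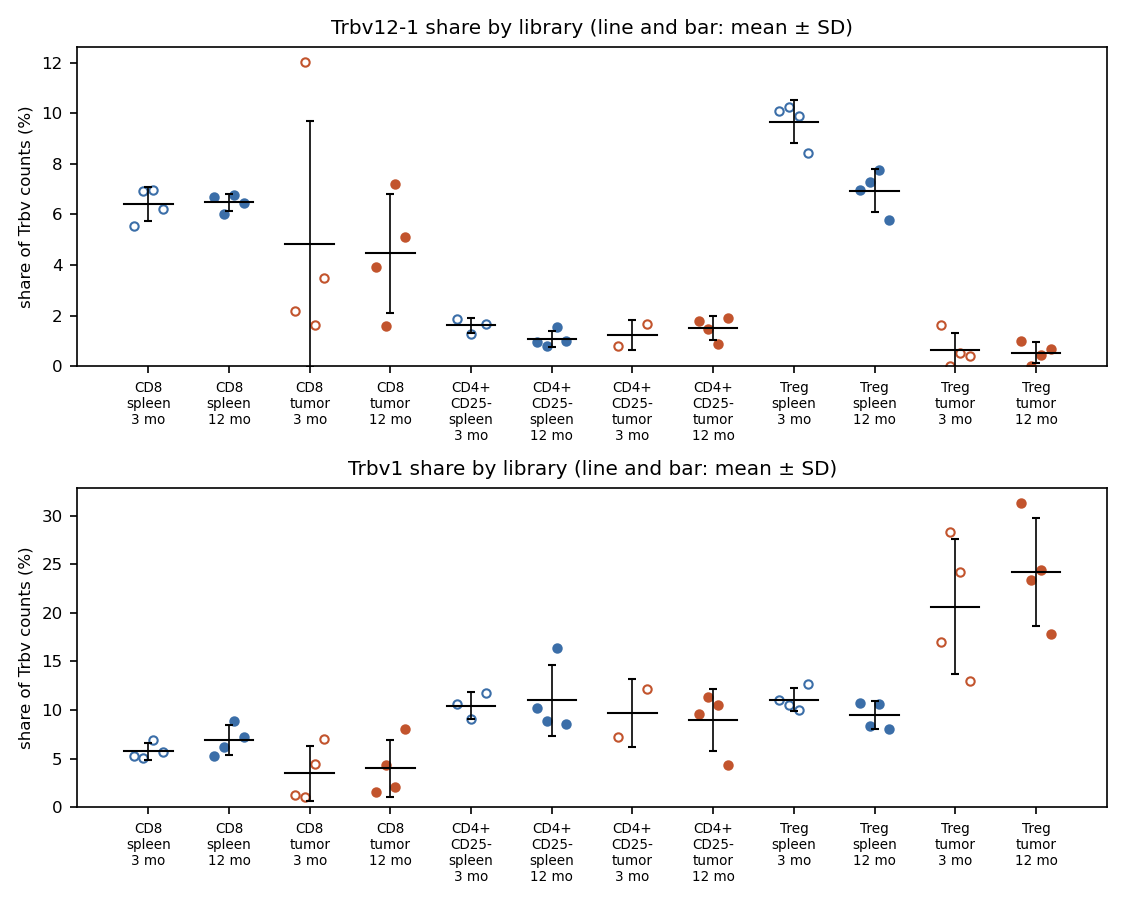
Share of Trbv counts (%, vertical axes) of Trbv12-1 (top) and Trbv1 (bottom) in each T cell library by sorted type, tissue and age (horizontal axis); open points are 3 months, filled points 12 months, blue spleen and orange tumor, and lines with bars are means ± SD (bars are cut at 0). In regulatory T cells (Treg) Trbv12-1 lies at 5.80 to 10.2% in spleen and 0 to 1.62% in tumor, and Trbv1 at 8.03 to 12.7% and 13.0 to 31.3%.

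In all, 8 of 36 segments tested differed between tumor and spleen in regulatory T cells (22.2%, beside 53.4% of the 13345 genes tested), 3 higher and 5 lower, and each kept its call in all 16 fits that left out 1 library. The share of Trbv20 rose by 1.18 ± 0.27 on the log2 scale (adjusted p = 0.000972), with 4.31 to 12.1% in tumor and 1.23 to 4.45% in spleen, while its level in the library did not pass (0.19 ± 0.29, adjusted p = 0.602). Trav6-3 rose by 1.80 ± 0.57 (adjusted p = 0.0111), from 0.617 to 3.63% in spleen to 0 to 14.3% in tumor. Both overlapped, and the Trav6-3 value is uncertain because of its copy: with the Trav6 segments summed no alpha subgroup was called.

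Of the 3 Trbv13 segments, 2 fell as well. Trbv13-1 fell by 1.66 on the log2 scale (SE 0.36, adjusted p = 0.000611), from 1.47 to 3.75% in spleen to 0.301 to 1.39% in tumor, with no overlap. Trbv13-3 fell by 1.90 (SE 0.49, adjusted p = 0.00273), from 1.84 to 3.35% to 0 to 1.62%, again with no overlap. Trbv13-2, 90.6% identical to Trbv13-3, differed by 0.17 ± 0.18 (adjusted p = 0.449). Trbv15 fell by 0.95 (SE 0.28) and Trbv31 by 0.92 (SE 0.32), and the libraries of both overlapped.

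Whether these effects differ from those of conventional CD4 T cells was tested with an interaction term, added after the data had been seen. At 4 of 68 segments (5.88%, beside 9.52% of the 16607 genes tested) the tumor against spleen difference was not the same in the 2 types. For Trbv12-1 it was lower in regulatory T cells (log2 difference -3.87 ± 0.55, adjusted p = 3.25e-06), and for Trbv1 higher by 1.34 ± 0.28 (adjusted p = 0.00118); both held in all 29 fits that left out 1 library. Conventional CD4 T cells had Trbv12-1 at 0.805 to 1.87% in spleen and 0.814 to 1.89% in tumor (log2 0.037 ± 0.39, adjusted p = 0.959). Their Trbv1 share was 8.52 to 16.4% in spleen and 4.37 to 12.2% in tumor (log2 -0.20 ± 0.22, adjusted p = 0.538). The other calls were less stable: Trbv13-1 (-1.36 ± 0.45, adjusted p = 0.0488) was lost in 21 of the 29 fits, and Trav14-3 (-2.64 ± 0.82, adjusted p = 0.0324) in 6. Summed over its near copies, the Trav14 value was 0.091. Without replicate 4 of the 12-month spleen group or replicate 3 of the 12-month tumor group of regulatory T cells, 2 segments were called.

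Levels of markers of other cells moved with tissue in these sorts. The sum of 5 B cell markers (Cd79a, Cd79b, Ms4a1, Cd22, Pax5) was 49.1 to 83.7 CPM in regulatory T cells of spleen and 18.7 to 35.5 CPM in tumor. In tumor regulatory T cells Ms4a1 was at a median of 0.508 CPM, so most of the B cell sum lay in the other genes of the list. Of the NK cell markers only Klre1 is given, at a median of 0 CPM there, and it does not stand for the others. The sum of 6 macrophage markers (Adgre1, Csf1r, Lyz2, C1qa, C1qb, Cd68) was 14.6 to 41.9 CPM in spleen and 20.2 to 50.8 CPM in tumor. In CD8 T cells the B cell sum was 58.2 to 118 CPM in spleen and 13.5 to 34.5 CPM in tumor, and in conventional CD4 T cells 13.9 to 42.6 and 5.41 to 22.4 CPM. The sum of 7 gamma-delta T cell genes, led by the constant region Tcrg-C2, was 9.05 to 63.6 CPM in CD8 T cells of spleen and 32.2 to 234 CPM in tumor, with Trdv4 at 0 in all of them. The part of other cells in the usage results was not tested. Macrophage and dendritic cell libraries held at most 11.5 CPM of Trbv counts in all, against 117 to 827 CPM in the T cell libraries. They give no value for T cells of another type, and held 0 to 27.3 CPM of Trac themselves.

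In CD8 T cells, tumor libraries departed from spleen libraries in different directions. In spleen Trbv16 held 8.40 to 11.2% of Trbv counts in the 8 libraries. In tumor it held 32.5, 14.9, 18.3 and 4.48% at 3 months and 12.2, 26.4, 4.85 and 8.65% at 12 months. Tumor libraries thus reached both below and above the spleen range, and the difference of 0.58 ± 0.36 on the log2 scale did not pass the test (adjusted p = 0.223). Trav14-1, an alpha segment with near copies, also reached below and above, at 3.02 to 8.99% in spleen and 0.524 to 32.1% in tumor (log2 0.021 ± 0.72, adjusted p = 0.985).

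Of 50 segments tested in CD8 T cells, 5 differed between tumor and spleen (10%, beside 42.1% of 13285 genes tested). Trbv15 fell by 1.10 on the log2 scale (SE 0.27, adjusted p = 0.00217): it held 4.53 to 7.33% in spleen and 1.39 to 2.80% in 7 of the 8 tumor libraries, with 7.68% in replicate 4 at 12 months. Trbv12-2 fell by 0.48 (SE 0.15, adjusted p = 0.0131), from 9.49 to 12.7% to 5.70 to 13.9%. Trbv13-1 rose by 0.92 ± 0.28 (adjusted p = 0.0114), from 2.24 to 4.33% to 1.40 to 14.2%. Its direction was the opposite of that in regulatory T cells, a difference between types that was not tested. These 3 held in all 16 fits that left out 1 library. Trbv13-3 fell by 0.78 (SE 0.30, adjusted p = 0.041), and lost the call in 10 of the 16. Trav3-1 rose by 2.05 ± 0.61 (adjusted p = 0.00853), from 0 to 1.65% to 0.800 to 7.95%, and did not pass without replicate 2 of the 12-month tumor group (adjusted p = 0.0612). With alpha subgroups summed, Trav3 was not called, and the 1 called was Trav15, lower in tumor (log2 -2.24 ± 0.69, adjusted p = 0.0116). With replicate 4 of the 3-month tumor group left out, 9 segments passed.

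No segment passed the test that the tumor against spleen difference in CD8 differs from that in conventional CD4 T cells, of 70 tested with edgeR, beside 4.63% of the 16747 genes tested. At an unadjusted p below 0.05 there were 7, and DESeq2 called 1. With the replicate block 2 were called, Trbv15 (-1.57 ± 0.38, adjusted p = 0.0114) and Trbv12-2 (-0.95 ± 0.26, adjusted p = 0.0268), and 2 segments each were called without the filter on low counts and with the median-ratio offset. The nearest were Trbv15 (-1.33 ± 0.42, adjusted p = 0.0572) and Trbv13-1 (1.24 ± 0.40, adjusted p = 0.0668). Calls appeared without any one of 7 libraries. There was 1 call without replicate 2 of the 12-month conventional CD4 spleen group, replicate 3 of that type's 12-month or 3-month tumor group, or replicate 2 of the 12-month CD8 tumor group. There were 2 without replicate 1 of the 12-month conventional CD4 tumor group or replicate 4 of the 12-month CD8 tumor group, and 3 without replicate 4 of the 3-month CD8 tumor group.

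Conventional CD4 T cells had the fewest calls between tissues. Of 57 segments 3 passed (5.26%, beside 27.2% of 14661 genes tested), and each rested on few libraries. Trbv16 fell by 0.59 on the log2 scale (SE 0.21, adjusted p = 0.0427), from 5.18 to 10.4% in spleen to 2.95 to 6.51% in tumor, and lost the call in 8 of 13 fits that left out 1 library. Trav17 rose by 1.09 ± 0.40 (adjusted p = 0.043), with 2.5 to 5.70% in spleen; in tumor it held 26.8% in replicate 1 and 8.78% in replicate 3 at 3 months and 1.93 to 6.07% at 12 months, and lost the call in 7 of 13 fits. Trav7-1 had 3 counts of 2477 Trav counts in tumor and 53 of 4330 in spleen, a ratio of spleen to tumor shares of 10.1 (95% exact interval 3.28 to 50.6, counting error only). Of the 13 fits, 11 tested Trav7-1 and 9 kept its call, which was lost without replicate 1 or 3 of the 3-month tumor group. Without replicate 1 of the 3-month tumor group none of these segments passed, and with the replicate number as a block 1 segment passed, which was none of the 3. Without replicate 2 or 4 of the 12-month spleen group, replicate 2 of the 12-month tumor group or replicate 1 of the 3-month spleen group 1 segment passed. With alpha subgroups summed, Trav17 was called and Trav7 was not. With 2 tumor libraries at 3 months, these values have the least support.

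**Figure D3:**
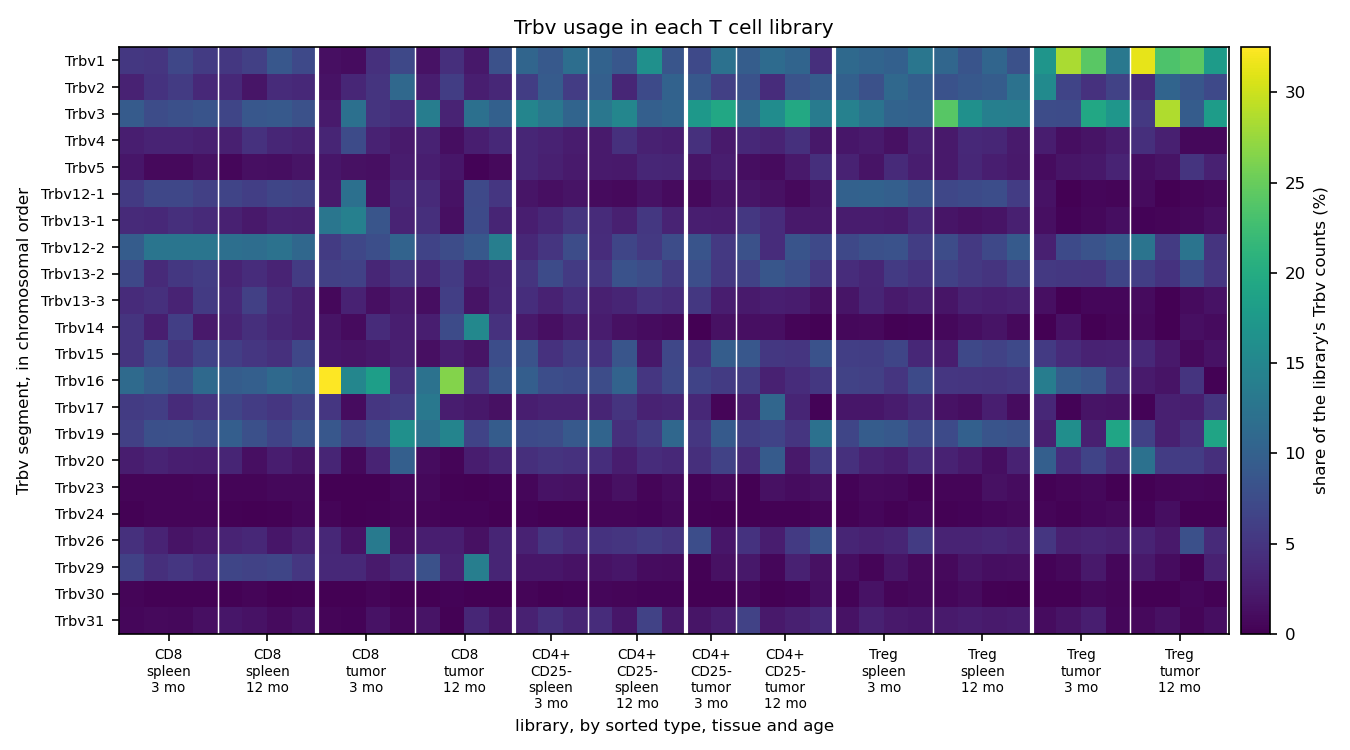
Share of Trbv counts (%, colour scale) of the 22 Trbv segments that reach 1% in a library (rows, in chromosomal order) in each of the 45 T cell libraries (columns, by sorted type, tissue and age; thick white lines separate tissues and types). Spleen columns of a type look alike, tumor CD8 columns have single bright cells such as Trbv16 at 32.5%, and tumor Treg columns share a bright Trbv1 row.

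Single segments above 15% of their locus were mostly a matter of tumor libraries. Of 32 such library and segment pairs, spread over 10 segments, 29 were in tumor and 3 in spleen. The 3 in spleen were Trbv1 at 16.4% (95% Wilson interval 14.7 to 18.1%, counting error only) in a 12-month conventional CD4 library, and Trbv3 at 24.1% (22.0 to 26.3%) and 16.3% (14.6 to 18.1%) in 12-month regulatory T libraries. In tumor CD8 T cells, replicate 1 at 3 months had both Trbv16 at 32.5% (30.1 to 35.0%) and Trav7-5 at 34.1% (29.4 to 39.1%). Replicate 2 at 12 months had Trbv16 at 26.4% (24.9 to 28.0%) and Trav14-1 at 32.1% (28.7 to 35.7%). Replicate 2 at 3 months had Trav14-3 at 20.3% (17.2 to 23.7%). So the libraries that shared a high Trbv16 differed in their leading Trav segment. In tumor regulatory T cells the segments above 15% were beta except for Trav17 at 15.4% (12.7 to 18.6%) in replicate 1 at 3 months. Trbv1 at 31.3% (28.5 to 34.3%) and Trbv3 at 28.6% (25.9 to 31.6%) were the highest there.

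The distance between libraries shows the same spread. Over pairs of same-age CD8 libraries, the median Bray-Curtis dissimilarity of Trbv shares, the percent of usage not held in common, was 10.5% in spleen and 34.6% in tumor. In regulatory T cells it was 11.8% and 28.9%, and in conventional CD4 T cells 18.2% and 23.6%. A spleen and a tumor library of the same type, age and replicate number were no closer than those of another number: medians were 29.1 and 28.9% in CD8, 20.03 and 18.5% in conventional CD4 and 32.9 and 31.6% in regulatory T cells. These are descriptions over pairs that share libraries, with no test.

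Evenness of usage was summarised as the effective number of segments, the exponential of the Shannon entropy of the shares, which equals the number of segments if all are used alike. For Trbv, regulatory T cells had 15.8 ± 0.943 effective segments (SD, n = 8) in spleen and 11.3 ± 1.09 (n = 8) in tumor, a ratio of 0.711. CD8 T cells had 17.1 ± 0.295 (n = 8) and 14.0 ± 1.64 (n = 8), a ratio of 0.813. By this measure, in neither type did tumor and spleen libraries overlap. Conventional CD4 T cells had 16.8 ± 0.38 (n = 7) and 15.2 ± 0.803 (n = 6), a ratio of 0.892, with overlap. Among tumor libraries, the regulatory T cells (9.41 to 12.8) lay below all conventional CD4 libraries (14.2 to 16.6), while in spleen the types overlapped. Other measures of Trbv evenness did not all separate the tissues. In regulatory T cells the inverse Simpson index overlapped (spleen minimum 9.62, tumor maximum 9.91), as did the effective number of subgroups (11.3 and 11.6). In CD8 T cells Pielou evenness, the entropy relative to its maximum for the segments with a count, overlapped (0.870 and 0.885).

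For Trav the effective numbers in spleen and tumor were 40.9 ± 4.42 and 29.1 ± 8.48 in CD8, 41.6 ± 3.48 and 31.7 ± 5.12 in conventional CD4 and 42.3 ± 3.48 and 32.1 ± 4.63 in regulatory T cells. Each type's mean was lower in tumor, and in each the libraries overlapped. The least even T cell library by Trav was replicate 1 of the 3-month CD8 tumor group, with 15.6. Tumor regulatory T libraries held fewer Trbv counts (433 to 996) than spleen libraries (1136 to 1634). With every library thinned to 433 Trbv or 158 Trav counts, the log2 ratio of tumor to spleen for Trbv was -0.48 in regulatory T cells beside -0.49 without thinning, and -0.31 beside -0.30 in CD8 T cells. In conventional CD4 T cells it was -0.15 beside -0.16. For Trav it was -0.33 beside -0.42 in conventional CD4, -0.54 beside -0.55 in CD8 and -0.45 beside -0.41 in regulatory T cells. Effective numbers are a description, with no p.

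**Figure D4:**
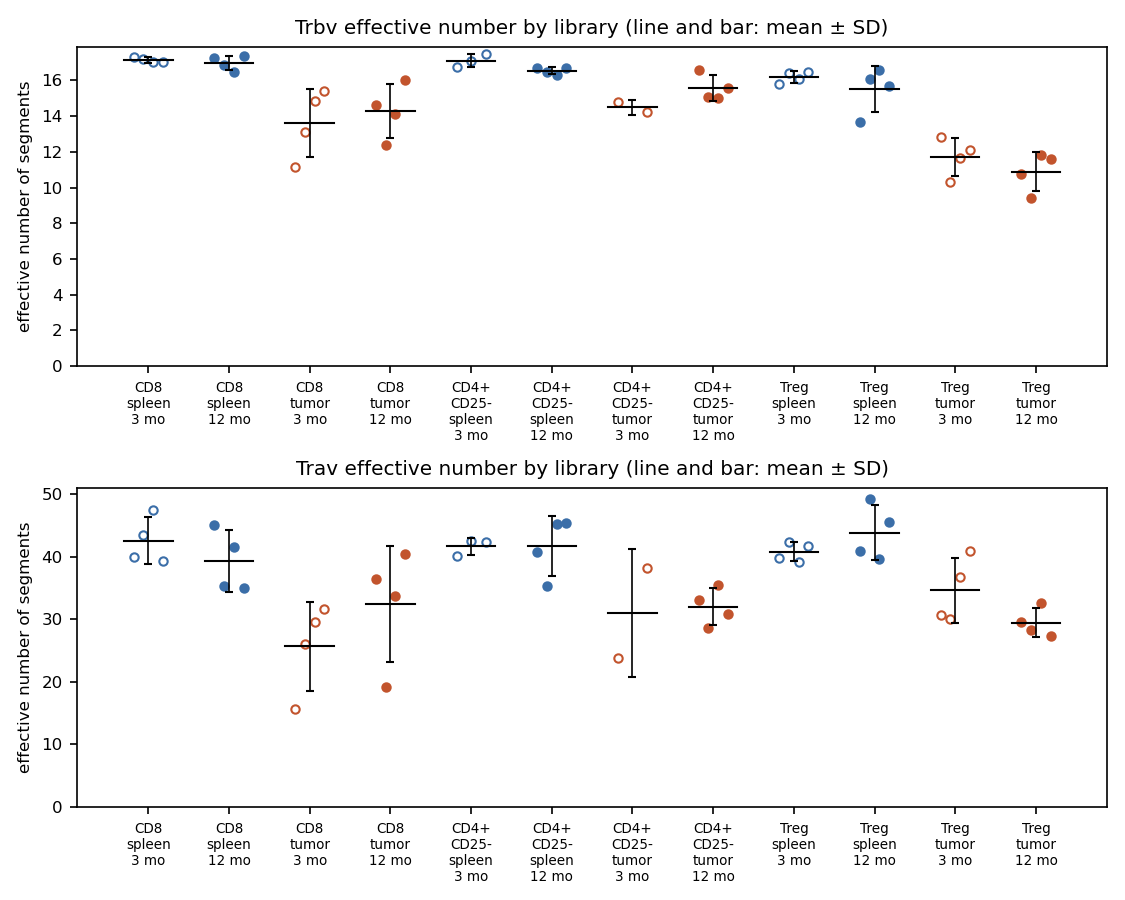
Effective number of segments (vertical axes) for Trbv (top) and Trav (bottom) in each T cell library by sorted type, tissue and age (horizontal axis); open points are 3 months, filled points 12 months, blue spleen and orange tumor, and lines with bars are means ± SD. For Trbv, tumor regulatory T libraries (Treg) lie at 9.41 to 12.8 and spleen ones at 13.6 to 16.6.

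No segment passed the test between ages. The adjustment runs over all genes of a fit, so the unadjusted p needed to pass was not the same in each comparison. For regulatory against conventional CD4 in tumor, where 47.2% of genes were called, Trav7-5 passed edgeR's test at an unadjusted p of 0.0222. Calls for tissue or type and their absence for age are therefore not a like comparison. In spleen, 0 of 34 segments tested passed in CD8 (beside 1.02% of all genes tested), 0 of 46 in conventional CD4 (3.88%) and 0 of 26 in regulatory T cells (0.0489%). In tumor, 0 of 33 passed in CD8 (0% of all genes), 0 of 38 in conventional CD4 (0.0311%) and 0 of 30 in regulatory T cells (0%). At an unadjusted p below 0.05, edgeR gave 0, 0 and 2 segments in spleen and 5, 1 and 4 in tumor, in the same order of types, and DESeq2 called none. Without the filter on low counts edgeR called 2 in CD8, 1 in conventional CD4 and 1 in regulatory T cells of the tumor, and with the replicate block 1 in conventional CD4 T cells of the tumor. In tumor regulatory T cells, where replicate numbers ran together across ages, the replicate block also gave 0 calls.

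Among the segments that did not pass, Trbv12-1 in spleen regulatory T cells had groups that did not overlap, with 8.43 to 10.2% at 3 months and 5.80 to 7.75% at 12 months (log2 -0.48 ± 0.19, adjusted p = 0.889). Trbv16 in tumor regulatory T cells held 13.8, 9.53, 8.53 and 4.95% at 3 months and 2.31, 1.77, 4.91 and 0.231% at 12 months (log2 -1.96 ± 0.56, adjusted p = 0.996). Its groups did not overlap either, though 4.95 and 4.91% nearly met. How many other segments or genes had groups without overlap was not counted, so no age effect is read from these. Trav17 in conventional CD4 T cells of the tumor had the smallest unadjusted p of the age comparisons (log2 -2.24 ± 0.58, adjusted p = 0.304), with 2 libraries at 3 months. Effective numbers of the ages overlapped in each type and tissue for Trav. For Trbv they overlapped in CD8 and regulatory T cells but not in conventional CD4 T cells: 16.3 to 16.7 at 12 months and 16.8 to 17.5 at 3 months in spleen, and 15.04 to 16.6 and 14.2 to 14.8 in tumor. These conventional CD4 values rest on 3 spleen and 2 tumor libraries at 3 months, and the tissues went in opposite directions.

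Within the tumor, regulatory T cells differed from conventional CD4 T cells at 9 of 59 segments tested (15.3%, beside 47.2% of 14882 genes). Trbv1 was higher by 1.27 ± 0.24 on the log2 scale (adjusted p = 0.00017), with no overlap between 13.0 to 31.3% and 4.37 to 12.2%. As a level in the whole library, rather than a share, Trbv1 differed by -0.25; regulatory T cells of the tumor held fewer Trbv counts altogether. Trav6-3 was the other higher segment (2.63 ± 0.72, adjusted p = 0.00454). Lower were Trbv13-1 (-2.01 ± 0.43, adjusted p = 0.000504, no overlap), Trbv13-3, Trbv15, Trbv31, Trav14-3, Trav6-7-dv9 and Trav7-5. Trav7-5 lost the call in 10 of 14 fits that left out 1 library. With alpha segments summed by subgroup, none of 17 was called. Trbv12-1, which separated the 2 types in spleen, did not pass in tumor: it held 0 to 1.62% in regulatory and 0.814 to 1.89% in conventional CD4 T cells (log2 -1.23 ± 0.68, adjusted p = 0.141).

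CD8 differed from conventional CD4 T cells of the tumor at 6 of 58 segments (10.3%, beside 14.4% of 15500 genes). Trbv29 (log2 2.01 ± 0.46, adjusted p = 0.00521) and Trbv12-1 (1.79 ± 0.48, adjusted p = 0.0162) were higher, as they were in spleen, and so were Trbv14 (2.52 ± 0.72, adjusted p = 0.0325) and Trav3-1 (2.88 ± 0.86, adjusted p = 0.0243). Trbv15 was lower (-1.37 ± 0.33, adjusted p = 0.00587), and so was Trav14d-3-dv8 (-3.003 ± 0.97, adjusted p = 0.0378), whose subgroup sum gave 0.063. With alpha subgroups summed, Trav16 was called higher in CD8, and Trav3 was not called. The libraries of the types overlapped at all 6. Trbv29 alone of the 6 kept its call in all 14 fits that left out 1 library. The count was 3 and 2 without replicates 1 and 3 of the 3-month conventional CD4 tumor group and 11 without replicate 4 of the 3-month CD8 tumor group, and DESeq2 called 12.

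The alpha segments of invariant natural killer T cells, Trav11 and Trav11d, had almost no counts, like the other segments with an identical double. Trav11 had 3 counts and Trav11d 1 count over the 45 T cell libraries, so no usage can be read from them. Their identical sequences leave their counts uncertain. The pseudogene Trav11n, which is not identical to them, had 36 counts. Trav1, the segment of mucosal-associated invariant T cells, had 198 counts, in 35 of 45 libraries, at 0 to 7.33% of Trav counts; the highest shares, 7.33 and 3.67%, were in tumor regulatory T cells at 3 months. Traj18 held 20.5 to 27.0 CPM in spleen conventional CD4 T cells, 9.68 to 19.3 in CD8 and 4.43 to 7.20 in regulatory T cells. In tumor regulatory T cells Traj18 rose by 1.12 ± 0.23 on the log2 scale (adjusted p = 0.000362) to 5.81 to 15.1 CPM, while the summed Traj segments went from a median of 111 CPM in spleen to 189 CPM in tumor. Traj33 held 0.782 to 3.89 CPM in spleen and 1.21 to 4.34 CPM in tumor regulatory T cells, and did not pass (0.66 ± 0.39, adjusted p = 0.161). Zbtb16, the transcription factor of invariant natural killer T cells, was at 0 to 3.89 CPM in tumor regulatory T cells.

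The balance of the 2 chains set tumor regulatory T cells apart. Summed Trbv counts were 4.47 to 5.35 per Trav count (4.89 ± 0.307 SD, n = 8) in spleen and 0.883 to 1.63 (1.24 ± 0.235, n = 8) in tumor, a ratio of 0.250 with no overlap. In CD8 T cells the ratio of tumor to spleen was 0.917 and in conventional CD4 T cells 0.883, both with overlap. Both chains moved in regulatory T cells: Trbv counts were 288 to 431 CPM in spleen and 117 to 158 CPM in tumor, while Trav counts were 60.3 to 82.9 and 87.6 to 152 CPM, and neither pair of ranges overlapped. The sums are descriptions, with no test.

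**Figure D5:**
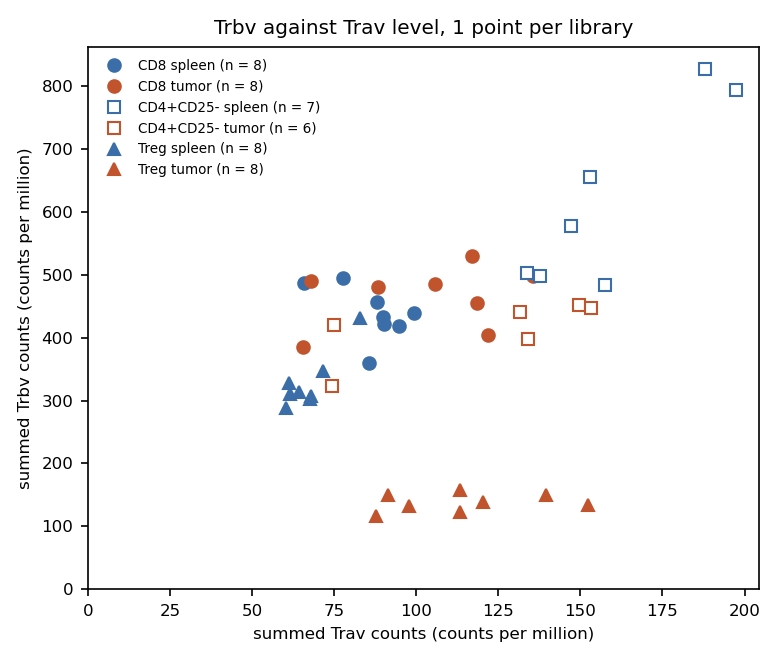
Summed Trbv counts (CPM, vertical axis) against summed Trav counts (CPM, horizontal axis), 1 point per T cell library, by sorted type (circles CD8, open squares conventional CD4, triangles regulatory T) and tissue (blue spleen, orange tumor). The 8 tumor regulatory T libraries (orange triangles) lie at 117 to 158 CPM of Trbv, below all the other T cell libraries, and at 87.6 to 152 CPM of Trav.

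The constant regions, which are transcribed together with the V segments of their chain, moved likewise in regulatory T cells. Trac rose by 1.31 ± 0.10 on the log2 scale (adjusted p = 8.60e-10), from 664 to 996 CPM in spleen to 1182 to 1742 CPM in tumor. Trbc1 fell by 0.64 (SE 0.11, adjusted p = 6.99e-05) and Trbc2 by 0.95 (SE 0.09, adjusted p = 3.53e-08). In CD8 T cells Trac rose by 0.54 ± 0.09 and Trbc1 by 0.33 ± 0.10, and in conventional CD4 T cells Trbc1 fell by 0.56 (SE 0.15) and Trbc2 by 0.64 (SE 0.16).

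Receptor genes other than V segments were also compared between tumor and spleen, beside 42.1% of all genes called in CD8, 27.2% in conventional CD4 and 53.4% in regulatory T cells. Of the 4 CD3 chains, which carry the signal of the receptor into the cell, 2 rose in CD8 (Cd3d and Cd3g), 0 in conventional CD4 and 3 in regulatory T cells (Cd3d, Cd3g and Cd247), and none fell. Of 10 genes of proximal signaling, 5, 3 and 5 rose in CD8, conventional CD4 and regulatory T cells, and 1 fell, Fyn in regulatory T cells; these shares of the list are near those over all genes. The kinase Zap70 rose in each type, by 0.83 ± 0.11, 0.67 ± 0.14 and 1.07 ± 0.08, and so did the phosphatase Ptpn22, by 0.83 ± 0.08, 1.24 ± 0.14 and 1.11 ± 0.10. The costimulatory receptor Cd28 rose by 1.65 ± 0.20, 1.24 ± 0.18 and 1.27 ± 0.19. Dntt, which adds letters at the joints of V segments in developing T cells and was the 1 recombination gene of 4 tested in these fits, fell by 5.47 (SE 0.61), 5.06 (SE 0.67) and 3.52 (SE 0.58). Its level was 1.36 to 17.7 CPM in spleen and at most 0.761 CPM in tumor. No gene of these lists passed in any of the 6 age comparisons.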

How the data were processed

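The deposited table holds raw counts per gene for each library, per the labels and the whole-number values; reads were aligned with STAR 2.5.3 to mm10 and counted with featureCounts, per the submitters' processing notes. Which annotation release and strand setting were used, and how reads matching several genes were treated, is not given in the sources used here. Library totals are from 1652812 to 7348746 counts in the T cell libraries.

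Segment names, positions and sequences were matched by symbol to GENCODE M21, which held all 163 segments. Shares, effective numbers and CPM values (counts scaled to a common library total) were computed from the counts with pandas 2.3.3 and numpy 2.4.6. Groups come from the library names in the labels. The whole table was filtered by expression and fitted with edgeR 4.0.16 (robust quasi-likelihood, two-sided), with Trav and Trbv rows offset by their locus totals and other genes by TMM factors. Benjamini-Hochberg adjustment ran over every gene of the fit, and an adjusted p below 0.05 was called. Tissue and type comparisons averaged the 2 ages, each age a group of its own in the fit, and age comparisons were fitted to their 2 groups; the 2 interaction terms were added after the data had been seen. The fitting code was tested on simulated data. Intervals are at the 0.95 level, and limits for a count of 0 use 3 counts; both cover counting error only. No 2 replicate libraries were identical.

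Named were the 5 Trav and 5 Trbv segments with the highest mean spleen share in each type, up to 3 segments past the threshold in each direction per comparison with a mean share of at least 1% in the higher group, segments above 15% in any library, Trav11, Trav11d, Trav1, Traj18, Traj33 and lists of receptor genes. Other segments named (Trbv13-2, Trbv17, Trbv26, Trav16n, Trav6-7-dv9) were chosen after their values were seen. A marker gene fixed with the lists is not reported here and is in no sum. Members and lists were chosen with earlier results of these data known.

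Replicate numbers were checked for pairing by correlating deviations from group means. Every same-number correlation was above 0.1 in 1 comparison, the ages of tumor regulatory T cells (4 pairs, 0.118 to 0.374, with a median of -0.0391 for other numbers). Alternatives were DESeq2 1.42.0, other size factors, no filter on low counts, a replicate block, levels in the library in place of shares, a median-ratio offset over the segments, subgroups summed, all 4 groups of a type in one fit, thinned counts, the inverse Simpson index, and each library left out in turn.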

Additional observations from a re-analysis of the deposited data

Results flagged for a closer look

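In 9 of 153 checks of a segment in a group of 4 libraries, 1 library stood far from the other 3; chance gives about 1 in 20 groups. In tumor, Trav14-3 held 3.50% in replicate 1 of the 3-month regulatory T cells against 0.275 to 0.737% in the others. Trav3-1 held 1.27% in replicate 4 and Trav7-1 1.44% in replicate 1 of the 12-month conventional CD4 T cells, and both were at 0 in the others. Trbv29 held 2.38% in replicate 3 of the 3-month CD8 T cells against 3.57 to 3.75%. In spleen, Trav7-1 held 4.36% in replicate 2 of the 12-month conventional CD4 T cells against 0.475 to 1.00%. Trbv12-2 held 9.49% in replicate 1 of the 3-month CD8 T cells against 12.6 to 12.7%, and Trbv2 held 1.80% in replicate 2 of the 12-month CD8 T cells against 3.72 to 4.04%. In regulatory T cells of spleen, Trbv13-1 held 3.75% in replicate 4 at 3 months against 2.41 to 2.497%, and Trbv15 held 2.57% in replicate 1 at 12 months against 6.43 to 7.13%.

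The tumor against spleen difference in regulatory T cells differed from that in conventional CD4 T cells, by the interaction term, at Trbv12-1 (log2 -3.87), Trav14-3 (-2.64), Trbv13-1 (-1.36) and Trbv1 (1.34). These were 4 of 68 segments tested (5.88%, beside 9.52% of all genes tested). With 1 library left out, Trbv13-1 lost its call in 21 of 29 fits and Trav14-3 in 6.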

How the results depend on the processing

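Counts of called segments moved by more than 1.5 times as follows. Without the filter on low counts, tumor against spleen gave 9 calls in CD8, 1 in conventional CD4 and 13 in regulatory T cells, the ages in tumor 2, 1 and 1, CD8 against conventional CD4 in tumor 11, and the CD8 interaction 2. As levels in the library, tumor against spleen gave 11 in conventional CD4 and 20 in regulatory T cells, CD8 against conventional CD4 gave 24 in spleen and 11 in tumor, regulatory against conventional CD4 gave 42 in spleen and 22 in tumor, and the interactions 8 (regulatory T) and 3 (CD8). DESeq2 gave 12 for CD8 against conventional CD4 in tumor and 1 for the CD8 interaction. With the replicate block, conventional CD4 T cells gave 1 between tissues and 1 between ages in tumor, CD8 against conventional CD4 in tumor 10, and the CD8 interaction 2; the other 11 counts stayed within 1.5 times. The median-ratio offset gave 2 for the CD8 interaction. The cause was not tested.

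With 1 library left out, calls ranged from 4 to 9 (CD8), 0 to 4 (conventional CD4) and 9 to 10 (regulatory T) between tissues, 0 to 0 between ages, 12 to 16 and 2 to 11 for CD8 against conventional CD4 in spleen and tumor, 5 to 9 and 7 to 10 for regulatory against conventional CD4, and 2 to 6 and 0 to 3 for the regulatory T and CD8 interactions. The log2 ratio of Trbv to Trav counts, tumor over spleen, ranged from -2.06 to -1.91 in regulatory T, -0.22 to -0.030 in CD8 and -0.26 to -0.11 in conventional CD4 T cells.

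Direction turned in the following cases (log2). With subgroups summed, the value is that of the whole subgroup, and the segment itself was not refitted. Between tumor and spleen, the Trbv13 sum differed in sign from Trbv13-3 in CD8 (0.15). The Trbv12 sum, which includes Trbv12-1, differed from Trbv12-2 in regulatory T (-0.87). In tumor, the Trav14 sum differed from Trav14d-3-dv8 for CD8 against conventional CD4 (0.063), and the Trav7 sum from Trav7-5 for regulatory against conventional CD4 (0.51). In the interaction, the Trav14 sum differed from Trav14-3 (0.091). As levels in the library, regulatory T cells gave Trbv12-2 -0.93 and Trbv19 -0.94 between tumor and spleen. Against conventional CD4 in spleen they gave Trav13-1 -1.38, Trav3-3 -1.18, Trav9-2 -1.06, Trbv12-2 -0.81, Trbv19 -1.15, Trbv2 -0.78 and Trbv3 -0.98. In tumor they gave Trbv1 -0.25, Trbv12-2 -1.37, Trbv19 -1.20, Trbv2 -1.43, Trbv20 -1.15, Trbv29 -1.47 and Trbv5 -1.42.

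Evenness (log2 ratio) moved by more than the spread with the inverse Simpson index for Trbv between tissues (CD8 -0.50, conventional CD4 -0.22, regulatory T -0.69), for Trav in regulatory T between tissues (-0.56), between the ages of conventional CD4 T cells (Trbv in spleen -0.071, Trav in tumor 0.46), and for Trbv between types (CD8 against conventional CD4 in spleen 0.074, regulatory against conventional CD4 in tumor -0.61). Over subgroups it moved in regulatory T between tissues (Trbv -0.28, Trav -0.20), between CD8 ages in spleen (Trbv 0.033), and between types (Trbv, CD8 against conventional CD4 in spleen -0.083, regulatory against conventional CD4 in tumor -0.27). Thinning moved none of 26. Alpha shares are limited by depth: 158 Trav counts in the smallest library allow a segment at 0 counts a share of up to 1.90%.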
